A study of Homo sapiens with 40 samples.

Results

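Genes that the transcription factor p53 is known to switch on were followed across 7 cell lines labelled as derivatives of U87, an established human glioblastoma cell line. The list held 31 genes, taken by name, and every probe set assigned to them was read. In all, 29 genes were read, by 68 probe sets, out of 19774 genes read in the series. All 29 passed the filter on dim genes and were tested among 17220 genes, and 60 of their 68 probe sets passed it too. BTG2, an antiproliferative factor, and FDXR, a mitochondrial reductase, were not analysed here.

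Stable U87 cells carried a lentivector with a CMV promoter, a puromycin marker and copGFP, and were grown with no added stress (basal) or with tunicamycin at 0.5 µg/ml for 16 h. The lines were empty vector (EV), wild-type IRE1alpha (WT), the mutants S769F, Q780* (a premature stop), P336L and A414T found in glioblastoma, and a dominant-negative IRE1alpha (IRE1-DN). IRE1 is a sensor of misfolded protein in the endoplasmic reticulum (ER), and tunicamycin provokes ER stress by blocking N-linked glycosylation. There were 40 arrays in 14 groups, 3 for each line and condition and 2 for IRE1-DN. All lines kept their own IRE1, so each construct acted on top of it. The labels give the 4 mutant lines clone numbers, whereas the methods describe stable pools, so whether each mutant line is a single clone is not settled. Replicates are labelled biological, but nothing says that they came from separate cultures, so p-values here cover the spread between arrays, which may be technical. Whether EV is the matched vector for IRE1-DN is given only in the labels.

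p53 is held at a low level by MDM2, a ubiquitin ligase whose gene p53 itself induces. When DNA damage or other stress frees p53, it induces genes for cell cycle arrest, DNA repair, cell death, and metabolism, and genes that feed back on p53. The best known arrest gene is CDKN1A, which encodes p21 and, through the DREAM complex, lowers many cell cycle genes. U87 is known to have lost CDKN2A, the locus of p16 and of ARF, an inhibitor of MDM2.

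p53 binds a 10-base half-site, usually as a pair. RefSeq promoters on GRCh38.p14, 250 bases before to 50 after the start, were found for 25 of the 31 genes, 35 promoters in all. A match to the p53 half-site stood in 6 of these 35 promoters (17.1%), 1 for each of 6 genes, against 6.63% of all 35116 promoters. A pair with up to 13 bases between stood in 1 (2.86%), that of DDB2, against 0.0285% of all. The matches are shown because they are the only ones in these windows, with the half-site in capitals, 5′ to 3′ on the strand of the gene.
PLK2, chr5:58460199-58460228, minus strand: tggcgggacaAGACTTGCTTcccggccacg
SESN1, chr6:109009018-109009047, minus strand: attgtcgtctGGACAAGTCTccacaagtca
DDB2, chr11:47214975-47215003, plus strand: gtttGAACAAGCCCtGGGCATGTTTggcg
RPS27L, chr15:63157517-63157546, minus strand: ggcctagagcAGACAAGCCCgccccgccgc
AEN, chr15:88621296-88621325, plus strand: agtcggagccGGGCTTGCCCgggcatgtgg
FDXR, chr17:74872986-74873015, minus strand: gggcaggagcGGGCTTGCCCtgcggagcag
The genes with a match did not move alike: on tunicamycin SESN1 was called higher in 7 of 7 lines, PLK2 higher in 4, AEN lower in 6, DDB2 lower in 3 and RPS27L in none. Sites elsewhere in a gene, such as those in introns, lie outside these windows.

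Array medians ran from 4.55 to 4.62 on the log2 scale, and the lowest correlation within a group was 0.9762. The deposited signals had been equalized between arrays, so near-equal medians cannot show that the arrays were even. The bioB hybridization signal ran from 5.87 to 7.35 over the arrays. VIM and CD44, mesenchymal markers, were bright, with means over all arrays of 13.22 and 12.46. The glial markers GFAP, S100B, OLIG2 and SOX2 averaged 4.04, 3.89, 4.18 and 4.58, all near the filter value of 4.27, so glial markers were absent or barely read in these cells. Markers of neurons (RBFOX3, SYP), leukocytes (PTPRC) and endothelium (PECAM1) lay between 3.73 and 5. On the probe set that stood for ERN1, which encodes IRE1alpha, none of the WT or mutant lines differed from EV under basal conditions (differences from -0.02 to 0.33). IRE1-DN read lower, by -1.05 (standard error 0.28, adjusted p = 0.00391 by limma), so this probe set does not check the constructs.

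The P336L arrays stood apart at CDKN2A, the gene that U87 is known to lack. CDKN2A read 7.2, 7.98 and 8.1 on the basal P336L arrays and 7.58, 7.61 and 7.65 on tunicamycin. On the other 34 arrays it lay between 4.11 and 5.09, near the filter value, and no array overlapped. The basal difference from EV was 3.16 on the log2 scale, 8.93-fold (standard error 0.19, adjusted p = 2.15e-13), and that from WT was 2.97 (standard error 0.19, adjusted p = 1.55e-12). A further CDKN2A probe set gave 6.48 to 7.67 in P336L and 3.55 to 4.08 elsewhere. CDKN2A was 1 of 30 tested genes, of 17220, that read higher on every P336L array than on every other array. Among the 43 genes read within 25 places on either side of CDKN2A on chromosome 9, 1 had all P336L arrays above all others. This was FOCAD, at 4.7 to 5.43 against 3.53 to 4. MTAP, the next gene, did not stand out (4.08 to 4.45 against 3.76 to 4.59). Whether the P336L cells are U87 cells like the others, a subclone or a mixture was not tested, and this bears on every P336L value below. Leaving out the 6 P336L arrays kept 167 of the 173 calls made in the other lines.

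**Figure D1:**
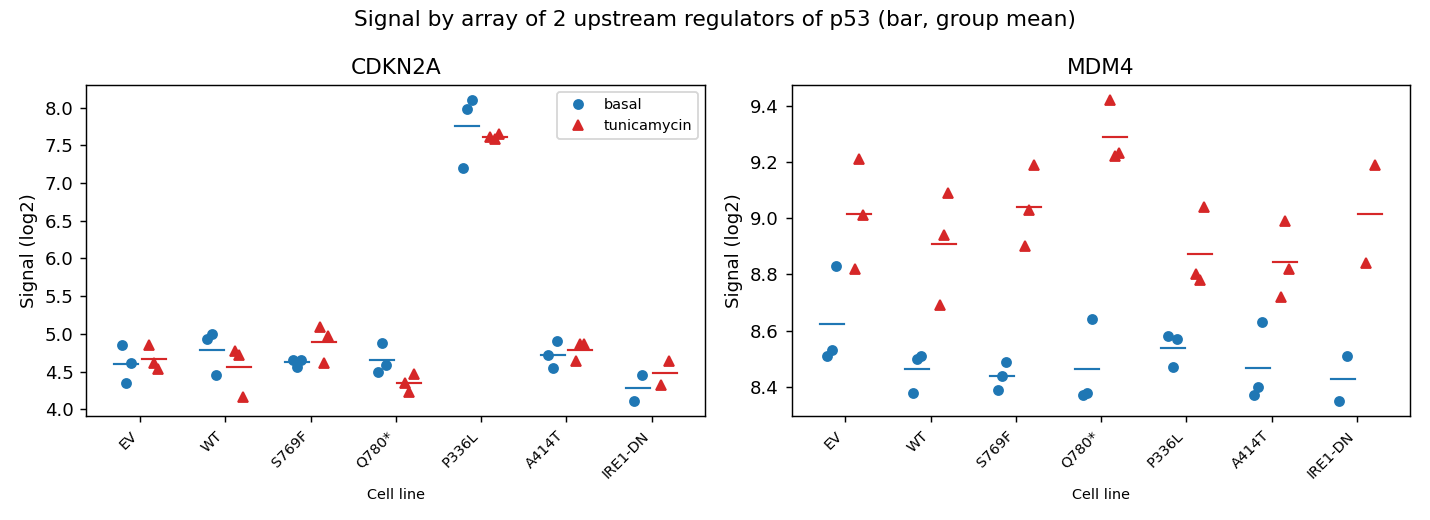
Log2 signal on each array (points, blue circles basal, red triangles tunicamycin; bars, group means) of CDKN2A and MDM4 in the 7 lines. All 6 P336L arrays read CDKN2A at 7.2 to 8.1 and the other 34 read it at 4.11 to 5.09, whereas the group means of MDM4 were higher on tunicamycin than under basal conditions in each line.

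MDM4, which blocks p53 alongside MDM2, was not called in any line against EV under basal conditions. Of 20 tested regulators of p53, 3 were called higher in basal P336L cells against EV and none lower, where 6.48% and 2.56% of all genes were. These were CDKN2A, COP1 (0.72, standard error 0.15, adjusted p = 0.00162), a ubiquitin ligase, and TP53BP2 (0.37, standard error 0.11, adjusted p = 0.0222), a p53-binding protein. COP1 also rose over EV in S769F (0.62), Q780* (0.63), A414T (1.25) and IRE1-DN cells (1.13), comparisons that share the EV arrays. TP53BP2 likewise rose over EV in Q780* (0.41), A414T (0.56) and IRE1-DN cells (0.46).

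The first question was whether IRE1 variants shift p53 targets with no added stress. A gene was called at a limma adjusted p under 0.05, with no minimum fold. Of the 29 targets, 4 were called higher and 3 lower in WT against EV cells, where 4.89% of all genes were higher and 3.68% lower. In S769F cells 2 were higher and 1 lower (4.23% and 1.92% of all genes). In Q780* cells none was higher and 2 were lower (3.35% and 1.82%). P336L cells had 2 higher and 3 lower (6.48% and 2.56%), A414T cells 1 higher and 10 lower (10.4% and 8.17%), and IRE1-DN cells 7 higher and 7 lower (15.2% and 12.4%). The median difference of the 29 was -0.03 in WT, -0.06 in S769F, -0.1 in Q780*, -0.05 in P336L, -0.22 in A414T and -0.19 in IRE1-DN cells, beside medians over all genes of -0.03 to 0.02. The lower calls were most numerous in A414T and IRE1-DN cells, and the shares of higher calls in S769F and P336L cells lay near those of all genes. All 6 comparisons share the same 3 EV arrays.

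**Figure D2:**
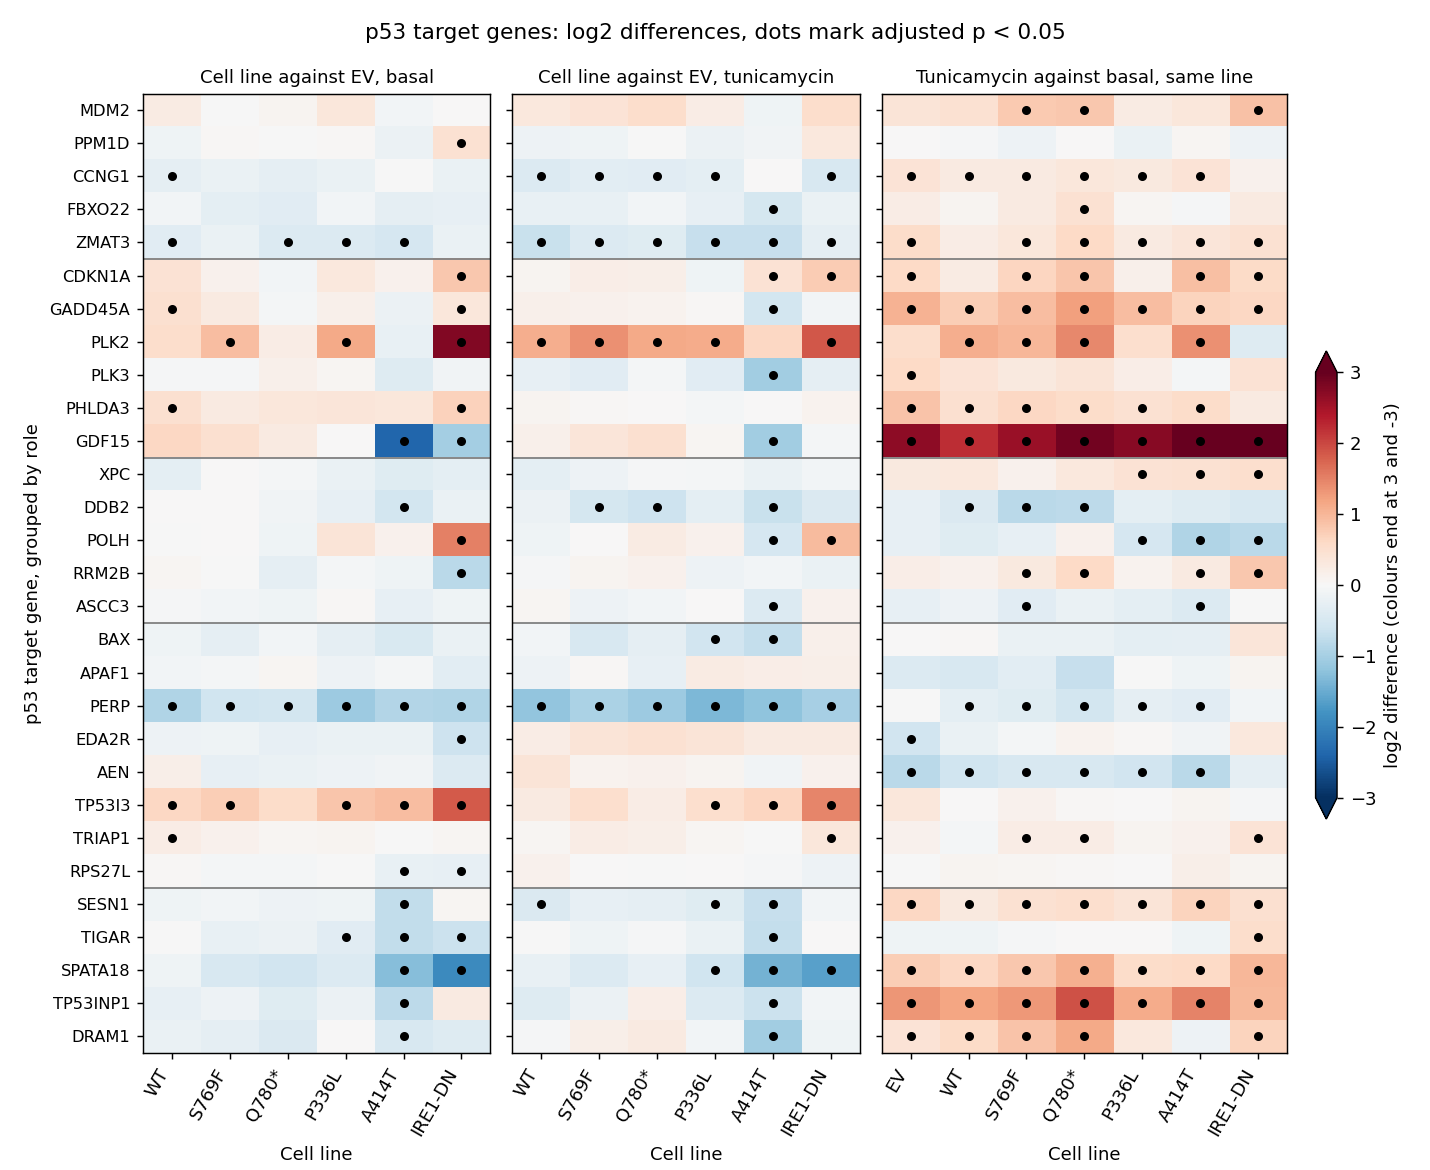
Log2 differences of the 29 tested p53 targets (rows, grouped by role from feedback genes at the top to metabolism genes at the bottom) for each line against EV under basal conditions, against EV on tunicamycin, and for tunicamycin against basal in each line; red is higher, blue lower, and dots mark an adjusted p under 0.05. PERP was lower than in EV in every column of the first 2 panels, A414T cells had 10 and 15 lower calls there, and GDF15 rose on tunicamycin in all 7 lines; its rises of 4.03 and 3.64 lie beyond the colour scale.

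PERP, a tetraspan protein of cell junctions and of p53-driven cell death, was the gene on which all lines differed most evenly from EV. Its signal was 11.28, 11.42 and 11.52 on the basal EV arrays. It was 10.39, 10.53 and 10.61 in WT, 10.76, 10.81 and 10.84 in S769F, and 10.81, 10.88 and 10.88 in Q780* cells. In P336L cells PERP read 10.3, 10.32 and 10.34, in A414T 10.52, 10.52 and 10.54, and in IRE1-DN 10.42 and 10.58. No array of another line reached the lowest EV array. The log2 differences were -0.9 in WT, -0.6 in S769F, -0.55 in Q780*, -1.09 in P336L, -0.88 in A414T and -0.91 in IRE1-DN cells, with standard errors of 0.08 to 0.09 and adjusted p of 9.59e-06 or less. PERP has 5 probe sets, of which 3 passed the filter, and in P336L cells these gave -1.09, -1.35 and -0.76, all called lower.

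TP53I3, a quinone oxidoreductase tied to oxidative stress, ran the other way. It read 7.13, 7.21 and 7.45 on the basal EV arrays, and 7.66, 7.82 and 8.18 on those of WT. S769F arrays read 7.72, 7.99 and 8.28, Q780* arrays 7.49, 7.92 and 8.05, and P336L arrays 7.87, 8.08 and 8.39. A414T arrays read 8.02, 8.17 and 8.36, and IRE1-DN arrays 9.08 and 9.14, so that every array of the other lines lay above all 3 EV arrays. TP53I3 was called higher in WT (0.62), S769F (0.73), P336L (0.84), A414T (0.92) and IRE1-DN cells (1.84, 3.59-fold), with standard errors of 0.17 to 0.19. In Q780* cells the difference of 0.55 missed the threshold (adjusted p = 0.0502 by limma), and with the replicate number as a block it was called (adjusted p = 0.00638). The WT call was lost without EV replicate 1 or 2 or WT replicate 3, and the S769F call without S769F replicate 3.

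ZMAT3, an RNA-binding zinc finger protein that feeds back on p53, was 10.11, 10.13 and 10.32 on the basal EV arrays. It was 9.74 to 9.93 in WT, 9.72 to 9.87 in Q780*, 9.7 to 9.89 in P336L and 9.58 to 9.75 in A414T cells, all below EV. ZMAT3 was called lower in these 4 lines, by -0.33, -0.42, -0.4 and -0.51 (standard error 0.09 in each, adjusted p from 3.14e-05 to 0.00952). Its other probe sets gave the same sign in A414T cells on each of the 4, called on 2, but in P336L cells none of the 4 others was called. The WT call was lost without EV replicate 1 or WT replicate 2, and when its probe sets were averaged.

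PLK2, a polo-like kinase that restrains the cell cycle, was 8.14, 8.77 and 9.1 on the basal EV arrays. Arrays of IRE1-DN cells read 11.35 and 11.54, of P336L cells 9.46, 9.95 and 9.98, and of S769F cells 9.28, 9.66 and 9.81, all above EV. PLK2 rose by 2.77 in IRE1-DN (6.84-fold, standard error 0.26, adjusted p = 5.11e-10), by 1.13 in P336L (standard error 0.23, adjusted p = 0.001) and by 0.92 in S769F cells (standard error 0.23, adjusted p = 0.0112). The S769F call was lost without S769F replicate 2 or EV replicate 1. In WT, Q780* and A414T cells PLK2 arrays overlapped with those of EV and the gene was not called. With the replicate number as a block, which pairs the arrays of WT and EV cells (r from 0.33 to 0.63), PLK2 was called higher in WT cells (0.52, standard error 0.15, adjusted p = 0.02 by limma).

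**Figure D3:**
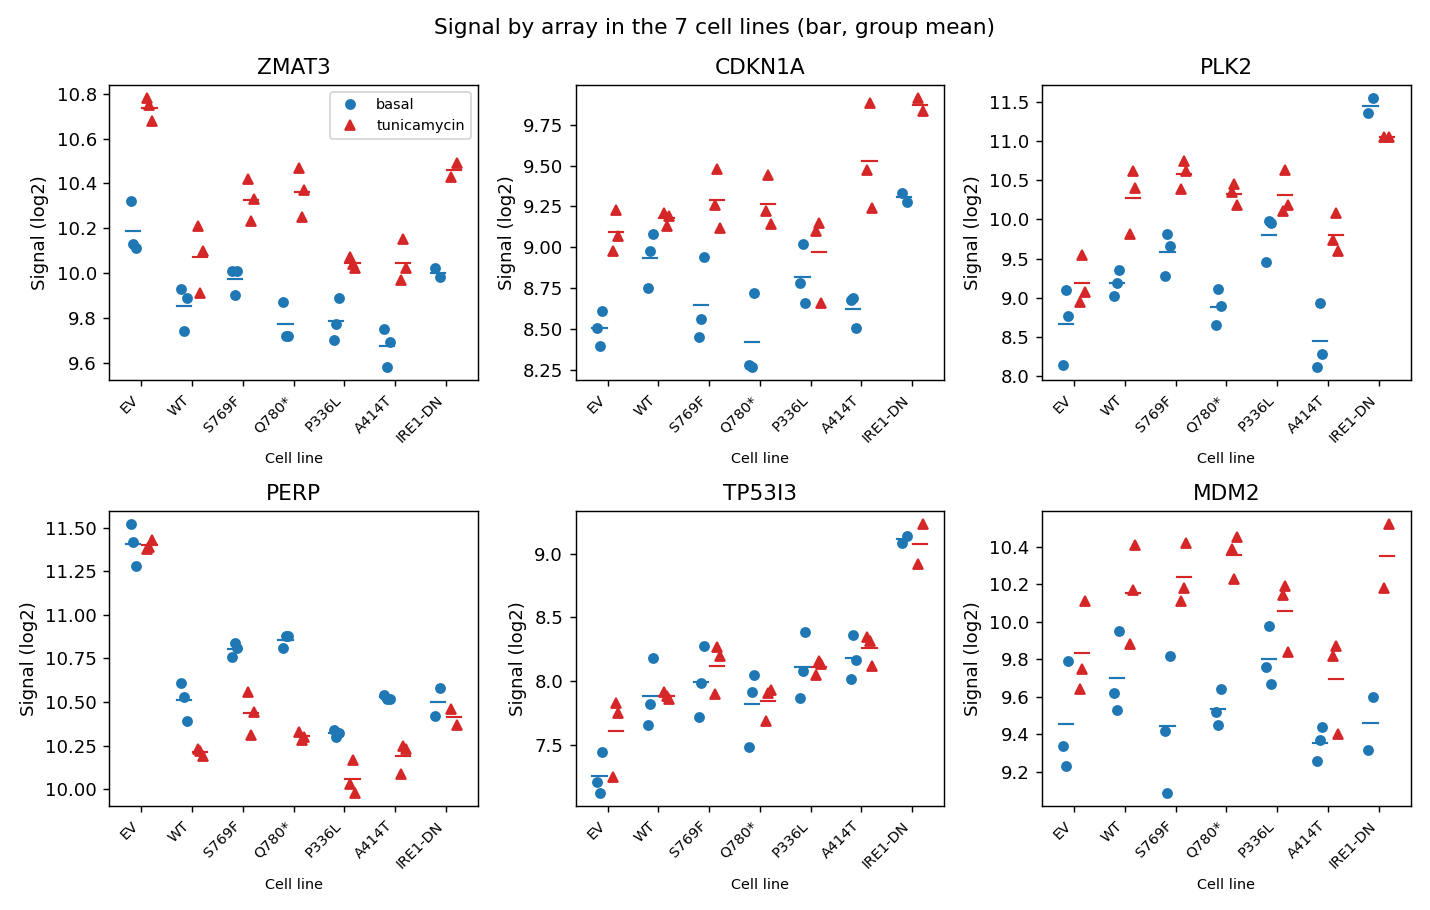
Log2 signal on each array (blue circles basal, red triangles tunicamycin; bars, group means) of ZMAT3, CDKN1A, PLK2, PERP, TP53I3 and MDM2 in the 7 lines; each panel has its own axis, which does not start at 0. EV arrays were the highest of all for PERP, and every basal EV array was below all arrays of the other lines for TP53I3. For MDM2 the basal arrays of each line overlapped with those of EV. Basal P336L arrays of MDM2 (9.67 to 9.98) lay above those of Q780*, A414T and IRE1-DN cells (9.26 to 9.64).

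CDKN1A and MDM2, the most used readouts of p53, changed less. CDKN1A read 8.4, 8.51 and 8.61 on the basal EV arrays and 9.28 and 9.33 on the IRE1-DN arrays, a rise of 0.8 (1.74-fold, standard error 0.17, adjusted p = 0.000528). It was not called in the other lines, where WT arrays read 8.75, 8.98 and 9.08 and P336L arrays 8.66, 8.78 and 9.02, both above EV by less than the fit required. MDM2 read 9.23, 9.34 and 9.79 on the basal EV arrays and was called in no line, with differences from -0.09 to 0.35. BAX, the pore-forming killer protein, and APAF1, the core of the apoptosome, were called in no line either (-0.45 to -0.08 and -0.31 to 0.05). The same held for PLK3, FBXO22, a ubiquitin ligase subunit, XPC, a sensor of DNA lesions, ASCC3, a helicase, and AEN, a nuclease, so that 8 of the 29 were called in none of the 6 lines.

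WT cells had 4 calls more, all of them small. GADD45A, a stress protein that halts the cycle, rose by 0.47 (standard error 0.11, adjusted p = 0.00563), with arrays at 10.55 to 10.77 against 10.11 to 10.38 in EV. PHLDA3, an inhibitor of AKT, rose by 0.47 (standard error 0.14, adjusted p = 0.0342) with arrays that overlapped, and TRIAP1, a survival protein of mitochondria, by 0.22 (standard error 0.07, adjusted p = 0.0483). CCNG1, cyclin G1, which works with MDM2, fell by 0.26 (standard error 0.08, adjusted p = 0.043). With only the 6 arrays compared in the fit, the count in WT cells was 2, and averaging its probe sets left PHLDA3 at 0 and not called. Leaving out EV replicate 2 gave 3 calls, and 4 remained as the count without EV replicate 1, without any of the 3 WT arrays in turn, or without the P336L arrays. In Q780* cells the count of 2 became 5 with the replicate number as a block, where the numbers pair the arrays (r from 0.21 to 0.47): CCNG1, TP53I3 and SPATA18 were then called as well as ZMAT3 and PERP. It was 4 without Q780* replicate 1, Q780* replicate 3 or EV replicate 3, and 0 with only the arrays compared.

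P336L cells raise the question of p53 activity most directly, since the study measured p53 protein in them. It reports raised p53 protein there, with p53 mRNA unaltered against EV cells. The array values are RNA levels of p53 targets and do not measure that protein. Against EV under basal conditions the calls were PLK2 and TP53I3 higher and PERP, ZMAT3 and TIGAR lower. TIGAR, a phosphatase that slows glycolysis, read 9.43, 9.45 and 9.57 in P336L and 9.79, 9.79 and 9.91 in EV cells, a difference of -0.35 (standard error 0.1, adjusted p = 0.0201) that was lost without P336L replicate 1 or 3 or EV replicate 1. CDKN1A (0.32, standard error 0.15, adjusted p = 0.272), MDM2 (0.35, standard error 0.18, adjusted p = 0.289), BAX (-0.27, standard error 0.18, adjusted p = 0.495) and GDF15 (0, standard error 0.22, adjusted p = 0.999) were not called. Against WT cells, a comparison with no EV array, none of the 29 was called by limma, where 1.63% of all genes were higher and 0.0813% lower. At an unadjusted p under 0.05 by limma, 7 of the 29 passed, and the methods' t-test, unadjusted, also gave 7. The share of all genes passing at that threshold was not counted, so these counts show nothing particular to the targets. The lowest adjusted p was 0.0768, for TIGAR (-0.35, standard error 0.1). The difference from WT was -0.12 for CDKN1A (standard error 0.15) and 0.11 for MDM2 (standard error 0.18), each smaller than its error. With the replicate number as a block TIGAR and PLK2 were called, though the numbers did not pair these arrays throughout (r from -0.31 to 0.33). Of 16 further p53 targets 1 was called against WT, higher as 1.63% of all genes were: IER5 (0.55, standard error 0.12, adjusted p = 0.0099).

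A414T cells had lower levels of many targets. GDF15, a secreted stress cytokine, was 8.78, 8.89 and 8.97 on the basal EV arrays and 5.79, 6.58 and 7.11 on the A414T arrays. It was lower by 2.38 on the log2 scale, that is 5.22-fold (standard error 0.22, adjusted p = 8.88e-10), and the 3 A414T arrays were the lowest of all arrays. All 5 tested genes of metabolism, mitochondria and autophagy were called lower. SPATA18, which helps clear damaged mitochondria, read 5.9, 6.56 and 6.66 against 7.46, 7.7 and 7.78 in EV cells (-1.28, standard error 0.19, adjusted p = 3.85e-06). SESN1, a sestrin that restrains mTORC1, read 6.56, 6.76 and 6.86 against 7.34, 7.48 and 7.55 (-0.73, standard error 0.1, adjusted p = 1.28e-06). TIGAR read 8.99, 9.09 and 9.23 against 9.79, 9.79 and 9.91 (-0.73, standard error 0.1, adjusted p = 1.19e-06). For these 3 genes no A414T array overlapped with an EV array.

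The other lower calls in A414T cells were smaller or less even. TP53INP1, a p53 cofactor with a role in autophagy, read 6.56, 7.39 and 7.73 against 7.95, 8.01 and 8.09 (-0.79, standard error 0.17, adjusted p = 0.000861), so 1 array lay far below the other 2. DRAM1, a lysosomal protein of autophagy, fell by 0.49 (standard error 0.15, adjusted p = 0.0162), a call lost without A414T replicate 3 or EV replicate 1 or 3. DDB2, which recognises damaged DNA, fell by 0.54 (standard error 0.15, adjusted p = 0.00777), a call lost without A414T replicate 1. RPS27L, a ribosomal protein homologue, fell by 0.22 (standard error 0.07, adjusted p = 0.0276), a call lost when arrays were centred on their median. CDKN1A (8.51, 8.68 and 8.69) and MDM2 (9.26, 9.37 and 9.44) overlapped with EV. Of 16 further p53 targets 4 were lower and 1 higher (8.17% and 10.4% of all genes); the largest were CYFIP2 (-1.79), PMAIP1 (-1.21), NINJ1 (-1.04) and TRIM22 (-0.9). With only the 6 arrays compared, 7 of the 29 were called. Genes of the PERK and ATF4 branch of the ER stress response moved in A414T cells too. Of 12, 3 were called higher and 3 lower (10.4% and 8.17% of all genes), the lower ones including NUPR1 (-1.84) and DDIT4 (-1.08). Such calls were not limited to A414T cells. Against basal EV cells, 5 of the 12 were higher in WT cells (4.89% of all genes) and 4 in P336L cells (6.48%). S769F cells had 4 higher (4.23%) and Q780* cells 3 (3.35%), and none was lower in any of these lines. IRE1-DN cells had 3 higher and 1 lower (15.2% and 12.4%). The median of the 12 was -0.2 in A414T cells. It was 0.43 in WT, 0.49 in S769F, 0.19 in Q780*, 0.44 in P336L and 0.15 in IRE1-DN cells. The part of this branch in the A414T values was not tested.

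**Figure D4:**
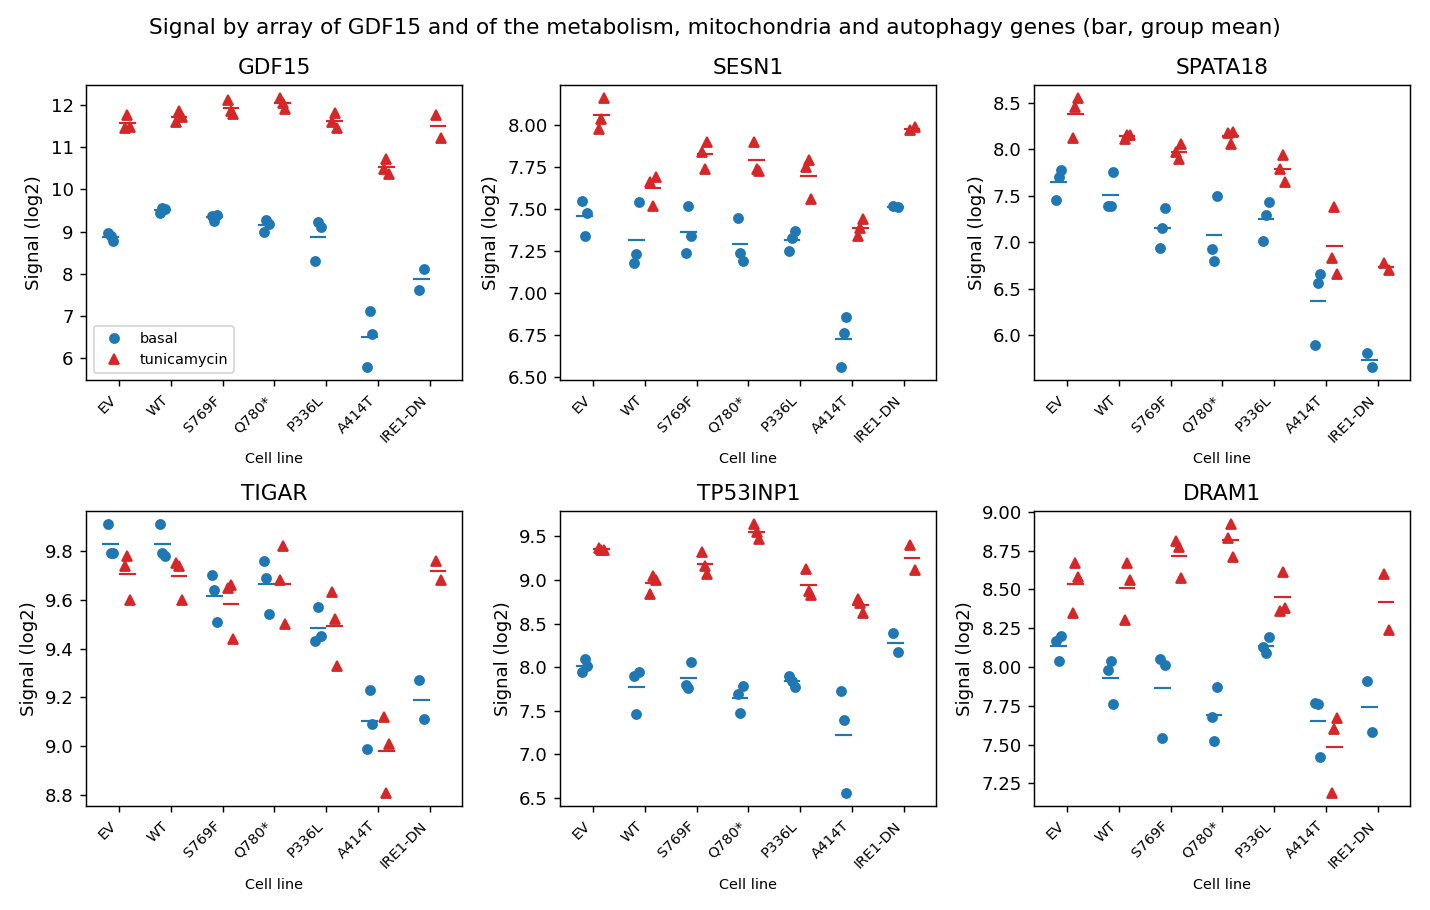
Log2 signal on each array (blue circles basal, red triangles tunicamycin; bars, group means) of GDF15, SESN1, SPATA18, TIGAR, TP53INP1 and DRAM1 in the 7 lines; each panel has its own axis, which does not start at 0. A414T arrays were below the EV arrays of the same condition in all 6 panels, and in SPATA18 the IRE1-DN arrays were too.

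IRE1-DN cells had as many higher as lower calls among the 29. Besides PLK2, TP53I3 and CDKN1A, the higher genes were POLH, PHLDA3, PPM1D and GADD45A. POLH, the polymerase that copies past ultraviolet lesions, read 7.98 and 8.07 against 6.36, 6.51 and 6.69 in EV cells (1.51, 2.85-fold, standard error 0.21, adjusted p = 9.16e-07), and 4 of its 5 probe sets that passed the filter were called higher. PPM1D, the phosphatase that switches off p53 signalling, rose by 0.46 (standard error 0.13, adjusted p = 0.00663) and PHLDA3 by 0.7 (standard error 0.16, adjusted p = 0.000921), the latter not with the mean of its probe sets. SPATA18 was lower by 1.91, that is 3.75-fold (5.66 and 5.81 against 7.46, 7.7 and 7.78, standard error 0.21, adjusted p = 1.22e-08). RRM2B, the p53-inducible subunit of ribonucleotide reductase, read 8.88 and 9.08 against 9.74, 9.78 and 9.82 (-0.8, standard error 0.1, adjusted p = 3.27e-07). GDF15 was lower by 1.01 (standard error 0.25, adjusted p = 0.00188) and TIGAR by 0.64 (standard error 0.11, adjusted p = 3.41e-05). EDA2R, a death receptor of the TNF family (-0.61), was no longer called without either IRE1-DN array or without EV replicate 1 or 3. RPS27L (-0.25) and GADD45A (0.34) were lost without IRE1-DN replicate 3 or EV replicate 3, GADD45A also without EV replicate 1, and GDF15 and PPM1D without IRE1-DN replicate 2. The 2 basal IRE1-DN arrays had bioB hybridization signals of 6.73 and 7.35, against 5.96, 6.29 and 6.73 on the EV arrays. With that signal as a covariate the PPM1D and GADD45A calls were lost.

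On tunicamycin, the same lines were set against EV cells under the same stress. WT cells had 1 target higher and 4 lower (5.64% and 6.49% of all genes), S769F cells 1 and 4 (4.63% and 4.4%), and Q780* cells 1 and 4 (4.91% and 4.73%). P336L cells had 2 higher and 6 lower (5.88% and 6.31%), A414T cells 2 higher and 15 lower (10.3% and 14.5%) and IRE1-DN cells 5 higher and 4 lower (11.5% and 14.5%). The median of the 29 was -0.41 in A414T cells, beside -0.02 over all genes, and between -0.09 and 0.01 in the other lines. The P336L count of 8 fell to 3 without P336L replicate 3, to 4 without EV replicate 3 or with only the arrays compared, and to 5 without EV replicate 2. PERP read 11.38, 11.39 and 11.43 on the stressed EV arrays and at most 10.56 in any other line, with differences from -1.34 in P336L to -0.96 in S769F cells, all called. ZMAT3 read 10.68, 10.75 and 10.78 in EV cells and was lower in all 6 lines, from -0.69 in P336L to -0.28 in IRE1-DN cells, where the call was lost without either IRE1-DN array.

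PLK2 separated the stressed lines from EV as well. It read 8.95, 9.08 and 9.55 on the stressed EV arrays, 9.81 to 10.62 in WT, 10.39 to 10.74 in S769F, 10.18 to 10.45 in Q780*, 10.11 to 10.63 in P336L and 11.05 on both IRE1-DN arrays. The calls were 1.08, 1.38, 1.13, 1.11 and 1.86, and A414T cells (9.6, 9.74 and 10.08) missed the threshold at 0.61 (adjusted p = 0.0524). With the replicate number as a block, which pairs the arrays of WT and Q780* cells with those of EV, AEN was also called higher in WT (0.39, adjusted p = 0.0235) and MDM2 in Q780* cells (0.52, adjusted p = 0.0334). CCNG1 was called lower in each line but A414T, by -0.49 to -0.3; in S769F, Q780* and P336L cells the call was lost without EV replicate 2, in P336L cells also without P336L replicate 3. In A414T cells the 15 lower genes took in all 5 metabolism genes again, with SPATA18 at -1.42 (6.66, 6.83 and 7.38 against 8.12, 8.46 and 8.55) and DRAM1 at -1.05 (7.19, 7.6 and 7.67 against 8.35, 8.58 and 8.67). GDF15 (-1.05), GADD45A (-0.56), PLK3 (-1.04), FBXO22 (-0.53), DDB2 (-0.67), POLH (-0.51), ASCC3 (-0.41) and BAX (-0.72) made up the rest with PERP and ZMAT3. FBXO22 and ASCC3 were lost without A414T replicate 3, ASCC3 also without EV replicate 3. ASCC3 turned to 0.11 with the mean of its probe sets, and the POLH call was lost with 5 of the 6 arrays left out in turn. Against this, CDKN1A was higher in A414T cells by 0.43 (standard error 0.15, adjusted p = 0.0384 by limma), with arrays at 9.24, 9.47 and 9.88 against 8.98, 9.07 and 9.23. This call was lost without A414T replicate 1 or 2 or EV replicate 1 or 3. CDKN1A was called higher in 2 of the 6 stressed lines, the other being IRE1-DN (0.77, arrays at 9.83 and 9.91). TP53I3 was called higher in 3 of the 6, with differences of 0.23 to 1.46 over all 6.

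The next question was how ER stress itself moved the targets within each line, where no comparison shares arrays with another. EV cells had 11 targets higher and 2 lower (18.2% and 12.7% of all genes), WT cells 9 and 3 (15.7% and 13.5%), S769F cells 14 and 4 (16.8% and 13.8%), and Q780* cells 15 and 3 (19.9% and 16%). P336L cells had 9 higher and 3 lower (11.9% and 14%), A414T cells 12 and 4 (15.8% and 17.3%) and IRE1-DN cells 13 and 1 (9.08% and 10.6%). The median change of the 29 ran from 0.1 in P336L to 0.36 in IRE1-DN cells, beside -0.04 to 0.02 over all genes. Higher calls were thus 31% of the targets or more in each line, and lower calls were 13.8% or less. In P336L cells the 12 calls became 7 without basal replicate 2 and 6 with only the arrays compared.

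GDF15 rose most in each line. It went from 8.78, 8.89 and 8.97 to 11.46, 11.49 and 11.76 in EV cells, a rise of 2.69 (6.46-fold, standard error 0.22, adjusted p = 7.67e-11). In A414T cells it went from 5.79, 6.58 and 7.11 to 10.36, 10.48 and 10.73, a rise of 4.03 (16.3-fold, standard error 0.22), yet every stressed A414T array stayed below every stressed EV array. GDF15 is also a known target of ATF4 and CHOP, and in EV cells 10 of 12 tested PERK and ATF4 targets rose (18.2% of all genes did), with a median of 2.66; SLC7A11 (4.21), TRIB3 (4.16), DDIT3 (3.92) and NUPR1 (3.66) led them. The part of that branch in the GDF15 values was not tested.

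GADD45A, SESN1, SPATA18 and TP53INP1 were the other genes called higher in all 7 lines. TP53INP1 rose by 0.98 in IRE1-DN to 1.91 in Q780* cells, and in EV cells from 7.95, 8.01 and 8.09 to 9.34, 9.34 and 9.37. Its dimmer probe set did not follow in EV cells (-0.18) and was called lower in WT cells. GADD45A rose by 0.63 to 1.22, in EV cells from 10.11, 10.15 and 10.38 to 11.05, 11.31 and 11.44. SESN1 rose by 0.3 to 0.66 and SPATA18 by 0.54 to 1.06; in WT cells the SESN1 arrays overlapped between conditions, and the call was lost without basal replicate 1 or 2 or stressed replicate 1 or 3. The SPATA18 call was lost in P336L cells without replicate 1 or 2 of either condition, and in A414T cells without basal replicate 1 or stressed replicate 2. PHLDA3 rose in all lines but IRE1-DN, CCNG1 in all but IRE1-DN, and ZMAT3 in all but WT cells, where it missed the threshold at 0.22 (adjusted p = 0.0518). The smaller rises rested on few arrays: that of ZMAT3 in P336L cells (0.26) was lost without replicate 1 or 2 of either condition, that of PHLDA3 there (0.45) without basal replicate 2 or stressed replicate 1, and that of CCNG1 in WT cells (0.27) without basal replicate 3 or stressed replicate 1.

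CDKN1A and MDM2 rose in some lines. CDKN1A went from 8.4, 8.51 and 8.61 to 8.98, 9.07 and 9.23 in EV cells (0.59, standard error 0.15, adjusted p = 0.0032), and rose in S769F (0.64), Q780* (0.84), A414T (0.9) and IRE1-DN cells (0.57). In WT cells it was not called (0.24, adjusted p = 0.254), nor in P336L cells (8.66, 8.78 and 9.02 to 8.66, 9.1 and 9.15; 0.15, adjusted p = 0.564). The difference between the P336L and EV responses of CDKN1A, -0.44, was not called either (standard error 0.22, adjusted p = 0.538). MDM2 rose in S769F (0.79), Q780* (0.82) and IRE1-DN cells (0.89) and was not called in EV (0.38, standard error 0.18, adjusted p = 0.107) or the others. In IRE1-DN cells the CDKN1A call was lost without any of the 4 arrays, and the MDM2 call without basal replicate 2 or stressed replicate 3. Of the MDM2 probe sets, 8 passed the filter, of which 5 were called higher in Q780* cells and 1, a dim one, lower.

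Repair and death genes moved in both directions. AEN fell in all lines but IRE1-DN, in EV cells from 8.31, 8.32 and 8.34 to 7.31, 7.49 and 7.73 (-0.82, standard error 0.15, adjusted p = 8.53e-05). DDB2 fell in WT (-0.43), S769F (-0.8) and Q780* cells (-0.78), and POLH in P336L (-0.51), A414T (-0.9) and IRE1-DN cells (-0.82). In S769F and Q780* cells, other POLH probe sets were called in opposite directions, while the probe set that stood for the gene was not called. PERP was steady in EV cells (11.28, 11.42 and 11.52 to 11.38, 11.39 and 11.43) and fell in the 5 lines with WT or mutant IRE1, by 0.26 to 0.55. TP53I3, BAX, APAF1, RPS27L and PPM1D were called in no line, and TP53I3 changed by -0.04 to 0.34. RRM2B rose in 4 lines, from 8.88 and 9.08 to 9.77 and 9.8 in IRE1-DN cells (0.8, standard error 0.11, adjusted p = 2.9e-06). The POLH call was lost in P336L cells without any array but stressed replicate 1, and in IRE1-DN cells without replicate 3 of either condition. The DDB2 call in WT cells was lost without basal replicate 3 or stressed replicate 2 or 3, the PERP call in P336L cells without stressed replicate 3, and the AEN call in Q780* cells without basal replicate 1 or 3 and in S769F cells without basal replicate 1 or 3 or stressed replicate 2.

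**Figure D5:**
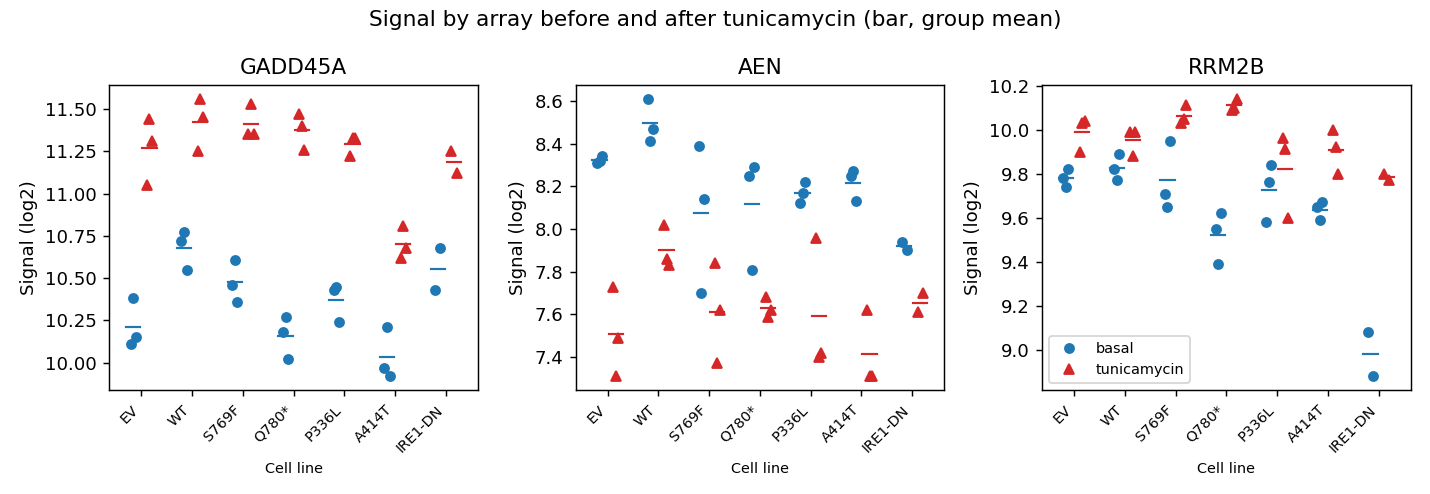
Log2 signal on each array (blue circles basal, red triangles tunicamycin; bars, group means) of GADD45A, AEN and RRM2B in the 7 lines; each panel has its own axis, which does not start at 0. GADD45A was higher on every stressed array than on every basal array of the same line, AEN was called lower in 6 lines, and the largest RRM2B rise, 0.8, was in IRE1-DN cells.

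Depending on the line, 10.6% to 17.3% of all genes were called lower on tunicamycin. Of the 20 cell cycle genes that p21 and DREAM lower, 19 were called lower in each of the 7 lines. Their median was -2.51 in EV, -3.33 in Q780* and -1.79 in P336L cells, and CDC20 (-3.95), BUB1 (-3.62), MKI67 (-3.38) and CCNA2 (-3.24) fell most in EV cells. Of these 20, 5 were higher in stressed P336L than in stressed EV cells, where 5.88% of all genes were, among them CCNA2 (1.71, standard error 0.47, adjusted p = 0.0139) and KIF20A (1.48, standard error 0.42, adjusted p = 0.0157). In stressed A414T cells 10 were higher and 1 lower (10.3% and 14.5% of all genes). Stressed Q780* cells went the other way, with none higher and 8 lower (4.91% and 4.73%) and a median difference of -0.85. S769F cells had none higher and 2 lower (4.63% and 4.4%), with a median of -0.38. WT cells had 1 higher and none lower (5.64% and 6.49%), and IRE1-DN cells 1 higher and 2 lower (11.5% and 14.5%). Under basal conditions 1 of the 20 was called in P336L cells, higher as 6.48% of all genes were. It was MYBL2 (0.87, standard error 0.21, adjusted p = 0.00473 by limma), which was also called in A414T (1.35) and IRE1-DN cells (1.66). The part of cell cycle position in the values of the targets was not tested.

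Whether a line answered tunicamycin otherwise than EV cells was tested as the difference of the 2 responses. None of the 29 was called by limma for WT, S769F or P336L cells, where 0.499%, 0.494% and 0.813% of all genes were. At an unadjusted p under 0.05, 3, 3 and 4 of the 29 passed. Those shares of all genes are for adjusted calls, and the shares at the unadjusted threshold were not counted. At the adjusted threshold 1 gene was called for Q780* (0.912% of all genes), 1 for A414T (6.82%) and 2 for IRE1-DN cells (5.19%). PERP fell by 0.54 more in Q780* cells than in EV cells (standard error 0.11, adjusted p = 0.00637), from 10.81, 10.88 and 10.88 to 10.28, 10.3 and 10.33. With the mean of its probe sets this was not called. GDF15 rose by 1.34 more in A414T cells (standard error 0.31, adjusted p = 0.00635). Among IRE1-DN differences, RRM2B rose by 0.6 more than in EV cells (standard error 0.15, adjusted p = 0.0128) and TIGAR by 0.66 more (standard error 0.16, adjusted p = 0.0104), TIGAR from 9.11 and 9.27 to 9.68 and 9.76 while EV cells went from 9.79, 9.79 and 9.91 to 9.6, 9.74 and 9.78. Neither IRE1-DN call held without basal replicate 3 or stressed replicate 2, and none of the 4 held with only the arrays compared. For A414T cells the count was 3 without basal EV replicate 1 and 2 without stressed A414T replicate 1.

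Across the 14 group means, the targets whose signal ran most like that of CDKN1A were PHLDA3 (r = 0.86), PLK2 (0.77), TP53INP1 (0.73) and TRIAP1 (0.71). AEN (-0.69) and DDB2 (-0.68) ran most against it. The 14 means share the tunicamycin contrast, so these values describe this set of groups alone. Over the 7 basal means r was 0.84 for PHLDA3, 0.86 for PLK2, 0.55 for TP53INP1 and 0.29 for TRIAP1, and -0.28 for AEN and -0.1 for DDB2. Over those means POLH (0.86) and TP53I3 (0.82) ran as much like CDKN1A, and APAF1 (-0.95) ran most against it. APAF1 was called in no line under basal conditions, with differences from EV of -0.31 to 0.05 and standard errors of 0.29 to 0.32. CDKN1A, PLK2, POLH and TP53I3 all had their highest basal mean in IRE1-DN cells, a group of 2 arrays. The r values over the 7 means therefore describe these means alone, and were not tested.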

How the data were processed

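Affymetrix arrays were hybridised with cRNA from 6 µg of total RNA. The authors deposited log2 signals after RMA, which corrects background, equalizes quantiles and summarizes each probe set. Its version, and whether 1 run held all arrays, are not given in the sources used. RMA shrinks differences of dim probe sets. Of 54715 probe sets, 40914 had a single gene symbol (40858 matched through Entrez ID), 864 had several and 12937 none; the last 2 kinds were left out. The probe set with the highest mean stood for each gene, and genes at or above the 40th percentile (4.27) on 2 arrays or more entered the fit.

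Group means of all 40 arrays were fitted in R 4.3.3 with limma 3.58.1 (degrees of freedom 26 residual, 3.44 prior), with Benjamini-Hochberg adjustment over 17220 genes, in 26 comparisons. A gene was called at an adjusted p under 0.05. Fits were tested on simulated data. The members and gene lists were chosen with earlier results of these data known. All 29 tested members were named, and of other lists at most 4 called genes of largest change. The number of arrays limits the precision. Same-number replicates correlated above 0.1 in every pair in 5 of 20 comparisons, with r from -0.39 to 0.63: S769F, WT and Q780* against EV (basal), and Q780* and WT against EV (tunicamycin). The labels do not say what a number stands for. Alternatives were no filter, the mean of all probe sets, arrays centred on their median, a fit of the compared arrays alone, trended robust eBayes, the methods' t-test (adjusted or not), a minimum change of 2-fold, the replicate number as a block, bioB signal as a covariate and leaving out each array; leaving out the P336L arrays was chosen after seeing the data. Promoters were scanned in Python 3.11.15 and figures drawn with matplotlib 3.10.9.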

Additional observations from a re-analysis of the deposited data

Results flagged for a closer look

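In 4 cases the response of a line to tunicamycin differed from that of EV cells by the test of that difference in limma. PERP changed by -0.54 (standard error 0.11, adjusted p = 0.00637) relative to EV in Q780* cells. GDF15 changed by 1.34 (standard error 0.31, adjusted p = 0.00635) relative to EV in A414T cells. RRM2B changed by 0.6 (standard error 0.15, adjusted p = 0.0128) and TIGAR by 0.66 (standard error 0.16, adjusted p = 0.0104) relative to EV in IRE1-DN cells. Groups of 2 or 3 arrays are too small to search for a single array that stands apart.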

How the results depend on the processing

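Of 198 calls of p53 targets, all 198 held with no filter on dim genes and with the replicate number as a block, 195 with eBayes with trend and robust, 190 with bioB signal as a covariate, 187 with arrays centred on their median and 175 when probe sets were averaged. With the mean of all probe sets PHLDA3 in WT against EV cells under basal conditions became 0 (adjusted p = 0.999) and ASCC3 in A414T against EV cells on tunicamycin 0.11 (adjusted p = 0.708), and the counts of differing responses became 0 for Q780* and 2 for A414T cells. With only the arrays compared, which leaves few degrees of freedom, 125 calls held. The basal counts against EV were then 2 in WT, 0 in S769F and Q780*, 2 in P336L and 7 in A414T cells, those on tunicamycin 3 in each of S769F and Q780* and 4 in P336L cells, those of tunicamycin against basal 6 in P336L and 6 in IRE1-DN cells, and the differing responses 0 for Q780*, A414T and IRE1-DN cells.

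A 2-fold minimum kept 46 of the 198 calls. Against EV under basal conditions it left 0 targets in WT, S769F and Q780*, 2 in P336L, 2 in A414T and 5 in IRE1-DN cells. On tunicamycin it left 2 in WT, Q780* and P336L, 1 in S769F, 5 in A414T and 3 in IRE1-DN cells. For tunicamycin against basal it left 3 in EV, 3 in WT, 2 in S769F, 6 in Q780*, 2 in P336L, 3 in A414T and 2 in IRE1-DN cells, and for differing responses 0 in Q780* and IRE1-DN cells.

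The methods' t-test, run on the 20 comparisons of 2 groups, kept 178 of 194 calls unadjusted and 81 after Benjamini-Hochberg adjustment. Unadjusted, the counts that moved against EV were 6 in Q780*, 7 in S769F and 9 in P336L cells under basal conditions and 9 in both Q780* and S769F cells on tunicamycin, and 7 for P336L against WT. The shares of all genes passing this t-test were not counted, so its counts show nothing particular to the targets. Adjusted, the basal counts were 0 in WT, S769F and Q780*, 1 in P336L, 7 in A414T and 8 in IRE1-DN cells, those on tunicamycin 1 in WT, S769F and Q780*, 2 in P336L and 8 in A414T cells, and those of tunicamycin against basal 8 in EV, 5 in WT, 4 in P336L, 7 in A414T and 0 in IRE1-DN cells.

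The replicate block raised the count of Q780* against EV cells under basal conditions to 5, of differing responses to 2 for Q780* and 2 for A414T, and of P336L against WT to 2; it changed no other count by over 1.5 times and ended no call. Trend and robust eBayes gave 4 for Q780* against EV under basal conditions and 2 for the A414T response. The bioB covariate gave 5 for Q780* against EV under basal conditions, 2 for the A414T response and 4 for the IRE1-DN response. Without the P336L arrays WT against EV under basal conditions gave 4. Leaving out each array in turn kept 989 of 1157 calls; an IRE1-DN group then has 1 array, assumed to vary like the others. The counts ran from 3 to 5 for WT and 2 to 4 for Q780* against EV under basal conditions, 3 to 7 for P336L against EV on tunicamycin, 7 to 11 for tunicamycin in P336L cells, and 1 to 3 and 0 to 3 for the A414T and IRE1-DN responses. The causes of these moves were not tested. The 2 IRE1-DN arrays per condition give the least precise values, and dim genes such as EDA2R (mean 4.49) lay near the filter value, where small changes are hard to read.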
